A study of Homo sapiens with 2 samples.

Results

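The core pluripotency transcription factors examined here are POU5F1, SOX2, NANOG, PRDM14, SALL4, ZFP42, DPPA2, DPPA4, UTF1 and FOXD3, chosen by name for their known role in undifferentiated embryonic cells. They are 10 of the 20263 genes and 26 of the 95139 transcripts in the deposited table, and all 10 passed the expression minimum used below. RNA-seq was done on H9, an established human embryonic stem cell line. The cells had been treated for 48 h with small interfering RNA (siRNA) against HNRNPA1, which encodes the splicing regulator hnRNP A1, or with a control siRNA. Each treatment is represented by 1 library, so no difference below has a replicate check and no p-value is given. The cells carry no other labelled manipulation, and the libraries are of whole cultures, in which fewer cells of a type and less RNA per cell cannot be told apart.

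In human embryonic stem cells OCT4 (the product of POU5F1), SOX2 and NANOG bind together at enhancers, including those of their own genes, and keep the undifferentiated programme running. The other factors are attached to this circuit as partners, repressors or chromatin proteins of the same cells. Several of these genes are spliced into forms that encode different proteins, or none, and hnRNP A1 is a protein that binds RNA and influences the choice of splice sites.

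The siHNRNPA1 library held 28147828 estimated counts and the control library 26680342. HNRNPA1 itself had 179.9 FPKM with siHNRNPA1 and 663 FPKM with control siRNA, which is 27.1% of the control level. Levels are given in FPKM, a read level corrected for transcript length and library depth, summed over the transcripts of a gene. A fold is log2((siHNRNPA1 + 1)/(control + 1)) of FPKM, and only differences of at least 2-fold are called higher or lower. Intervals are exact 95% intervals on the estimated counts and cover counting error only. Of 11921 genes with a mean of at least 1 FPKM, 1480 (12.4%) were at least 2-fold higher and 2609 (21.9%) at least 2-fold lower, with a median log2 fold of -0.13. After scaling by the median ratio between the libraries the counts were 1904 higher and 2193 lower, with the median fold at 0.0005. The median was -0.28 in TPM and -0.46 in TPM without mitochondrially encoded genes, which held 18.1% of TPM with siHNRNPA1 and 28.2% with control siRNA. Folds went with base composition. The fifth of genes with the lowest GC content had a median log2 fold of -0.98 and the fifth with the highest one of 0.59. Gene folds are therefore also given after subtracting the median fold of the 100 genes nearest in expression, GC content and length. On that scale 961 genes (8.06%) were at least 2-fold higher and 1002 (8.41%) at least 2-fold lower.

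The factors did not move as one group. PRDM14 was at least 2-fold higher in the siHNRNPA1 library, SOX2, DPPA2 and DPPA4 were at least 2-fold lower, and the other 6 stayed within 2-fold. That is 4 of 10 past 2-fold against 34.3% of all genes, 1 of 10 higher against 12.4% and 3 of 10 lower against 21.9%. Their folds lay evenly on both sides of 0, with 5 above and 5 below and a median of -0.09. After subtraction of the nearest genes PRDM14 was again the 1 factor higher and SOX2, DPPA2 and DPPA4 the 3 lower, against 16.5% of all genes past 2-fold on that scale. The median of the 10 factors was then -0.20 against -0.0015 for all genes. The subtraction turned the sign of POU5F1, NANOG, SALL4, UTF1 and FOXD3, all within 2-fold on both scales.

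**Figure D1:**
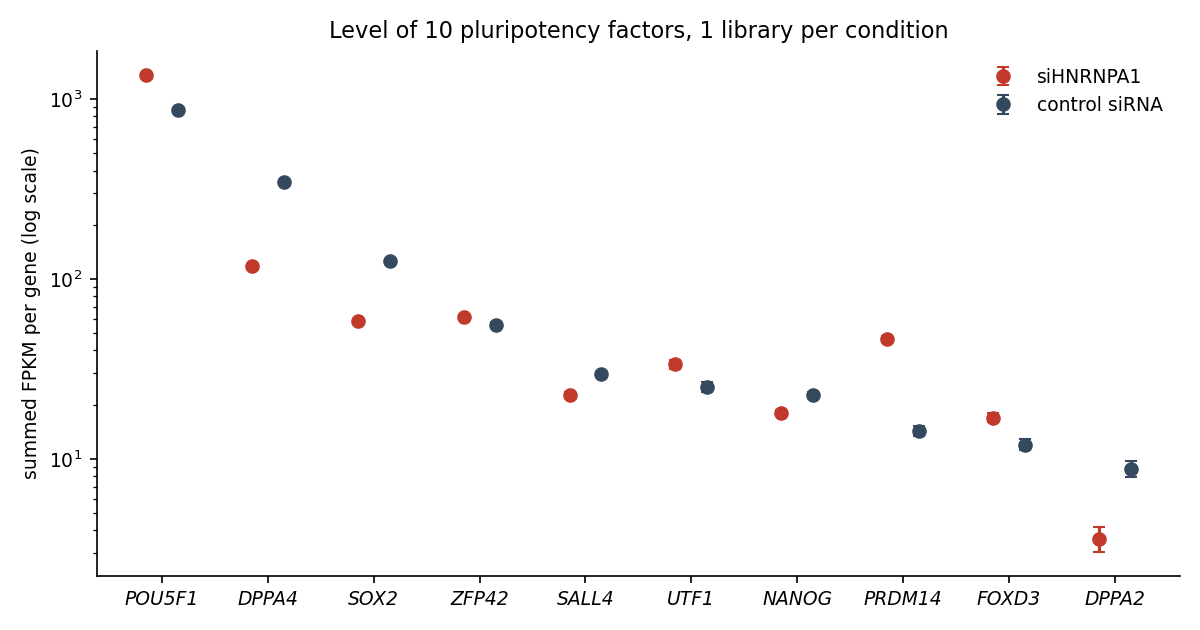
Summed FPKM of each factor on a log axis in the siHNRNPA1 library (red, left of each pair) and the control library (dark, right), with 95% counting intervals where they exceed the symbol. POU5F1 is the most abundant factor in both libraries, PRDM14 is higher in the siHNRNPA1 library, and DPPA4, SOX2 and DPPA2 are lower there.

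The central trio was led by POU5F1 in both libraries. POU5F1 (ENSG00000204531, chr6:31164337-31180731 on GRCh38, minus strand) had 1355 FPKM with siHNRNPA1 (1345 to 1366) and 864 FPKM with control siRNA (855 to 872), a log2 fold of 0.65. It ranked 56 among the 11921 genes with siHNRNPA1 and 51 with control siRNA, so its place among abundant mRNAs was about the same. The 100 nearest genes had a median fold of 0.75, and after the subtraction POU5F1 stood at -0.10. SOX2, the HMG-box partner that binds next to OCT4 on shared sites, behaved otherwise. SOX2 (ENSG00000181449, chr3:181711924-181714436, plus strand) is a gene of 1 exon, with 58.3 FPKM with siHNRNPA1 (56.6 to 59.9) and 126 FPKM with control siRNA (124 to 129). This is 46.2% of the level with control siRNA. The log2 fold was -1.10, and -1.26 after the subtraction. The fold was -0.95 after median-ratio scaling, just within 2-fold. The annotated gene SOX2-OT overlaps SOX2 on the same strand, without shared exon bases, and is not among the deposited genes. Unspliced SOX2-OT reads over SOX2 cannot be told apart from those of SOX2. NANOG is the homeobox factor of the trio. NANOG (ENSG00000111704, chr12:7787794-7799141, plus strand) had 18.0 FPKM with siHNRNPA1 (17.4 to 18.7) and 22.6 FPKM with control siRNA (21.9 to 23.4). Its log2 fold was -0.31, within 2-fold, and 0.81 after the subtraction, since its nearest genes had a median of -1.13.

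The balance within the trio therefore differed between the libraries. There were 23.3 units of POU5F1 mRNA per unit of SOX2 mRNA by FPKM with siHNRNPA1 (22.6 to 23.9) and 6.84 in the control library (6.69 to 6.995). The ratio of POU5F1 to NANOG was 75.2 with siHNRNPA1 and 38.2 with control siRNA. SOX2 exceeded NANOG by 3.23 times in the siHNRNPA1 library and by 5.58 times in the control library. These ratios are unaffected by how the libraries are scaled, but the difference in POU5F1 to NANOG turns direction once the nearest genes are subtracted, with POU5F1 at -0.10 and NANOG at 0.81. The ratios carry the base composition of each gene, with a GC content of 57.8% for POU5F1, 50.7% for SOX2 and 44.7% for NANOG in the leading transcript. POU5F1 made up 78.1% of the summed FPKM of the 10 factors with siHNRNPA1 and 57.4% with control siRNA. Part of this difference comes from DPPA4-208, a transcript described below, which adds 6.02 FPKM to the sum with siHNRNPA1 and 164 FPKM with control siRNA.

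OCT4 is made in several forms that differ at the amino-terminal end. The 360-codon transcript POU5F1-201 encodes OCT4A, the form that sustains pluripotency, and it had 1254 FPKM with siHNRNPA1 and 820 FPKM with control siRNA. It made up 92.6% of the gene's FPKM with siHNRNPA1 and 94.9% in the control library, so the total given above is almost wholly this form. The 7 other listed transcripts together had 100.8 FPKM with siHNRNPA1 (98.3 to 103) and 43.7 FPKM with control siRNA (41.7 to 45.8). Among them, 4 have a coding frame of 164 codons that begins downstream of the exon used by OCT4A, with 99.9 FPKM with siHNRNPA1 and 43.0 FPKM with control siRNA. Forms with a 190-codon frame, from POU5F1-207 and POU5F1-208, were near the limit of measurement at 0.843 FPKM with siHNRNPA1 and 0.607 FPKM with control siRNA.

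Nearly all of the difference in the 164-codon forms came from POU5F1-206. It had 56.4 FPKM with siHNRNPA1 (54.7 to 58.1) and 3.67 FPKM with control siRNA (3.24 to 4.15), which is 15.4 times the control level, on 4276 estimated counts with siHNRNPA1 and 260 with control siRNA. Its share of the gene's FPKM was 4.16% with siHNRNPA1 and 0.425% with control siRNA. POU5F1-205, which has the same coding frame but is spliced at intron 2, had 40.0 FPKM with siHNRNPA1 and 35.96 FPKM with control siRNA. POU5F1-204 had 2.15 FPKM with siHNRNPA1 and 1.72 FPKM with control siRNA, and POU5F1-202 had 1.35 FPKM with siHNRNPA1 and 1.65 FPKM with control siRNA. POU5F1-205 and POU5F1-204 have no exonic base outside the other listed POU5F1 transcripts, so their levels depend on how shared reads were divided. POU5F1-206 starts inside the first intron and keeps the 225-base intron 2 of POU5F1-201 (chr6:31165702-31165926) within a first exon of 1600 bases (chr6:31165571-31167170). Of its 2276 bases, 557 lie in no other listed transcript of the gene. All of these lie in introns of POU5F1-201, so reads of unspliced POU5F1 RNA cannot be told apart there from reads of POU5F1-206. On the opposite strand 248 of its bases are also exonic in TCF19-204, a transcript listed at 0 counts in both libraries. The first junction of POU5F1-201 is shown because it separates OCT4A from the shorter forms. It is from the GENCODE release 29 transcripts, with the end of exon 1 in capitals.
POU5F1-201 exon 1 to exon 2: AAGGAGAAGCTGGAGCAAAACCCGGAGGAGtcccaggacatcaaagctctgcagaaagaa
The line joins the end of exon 1 (chr6:31170216-31170693), which only POU5F1-201 has whole, to exon 2.

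**Figure D2:**
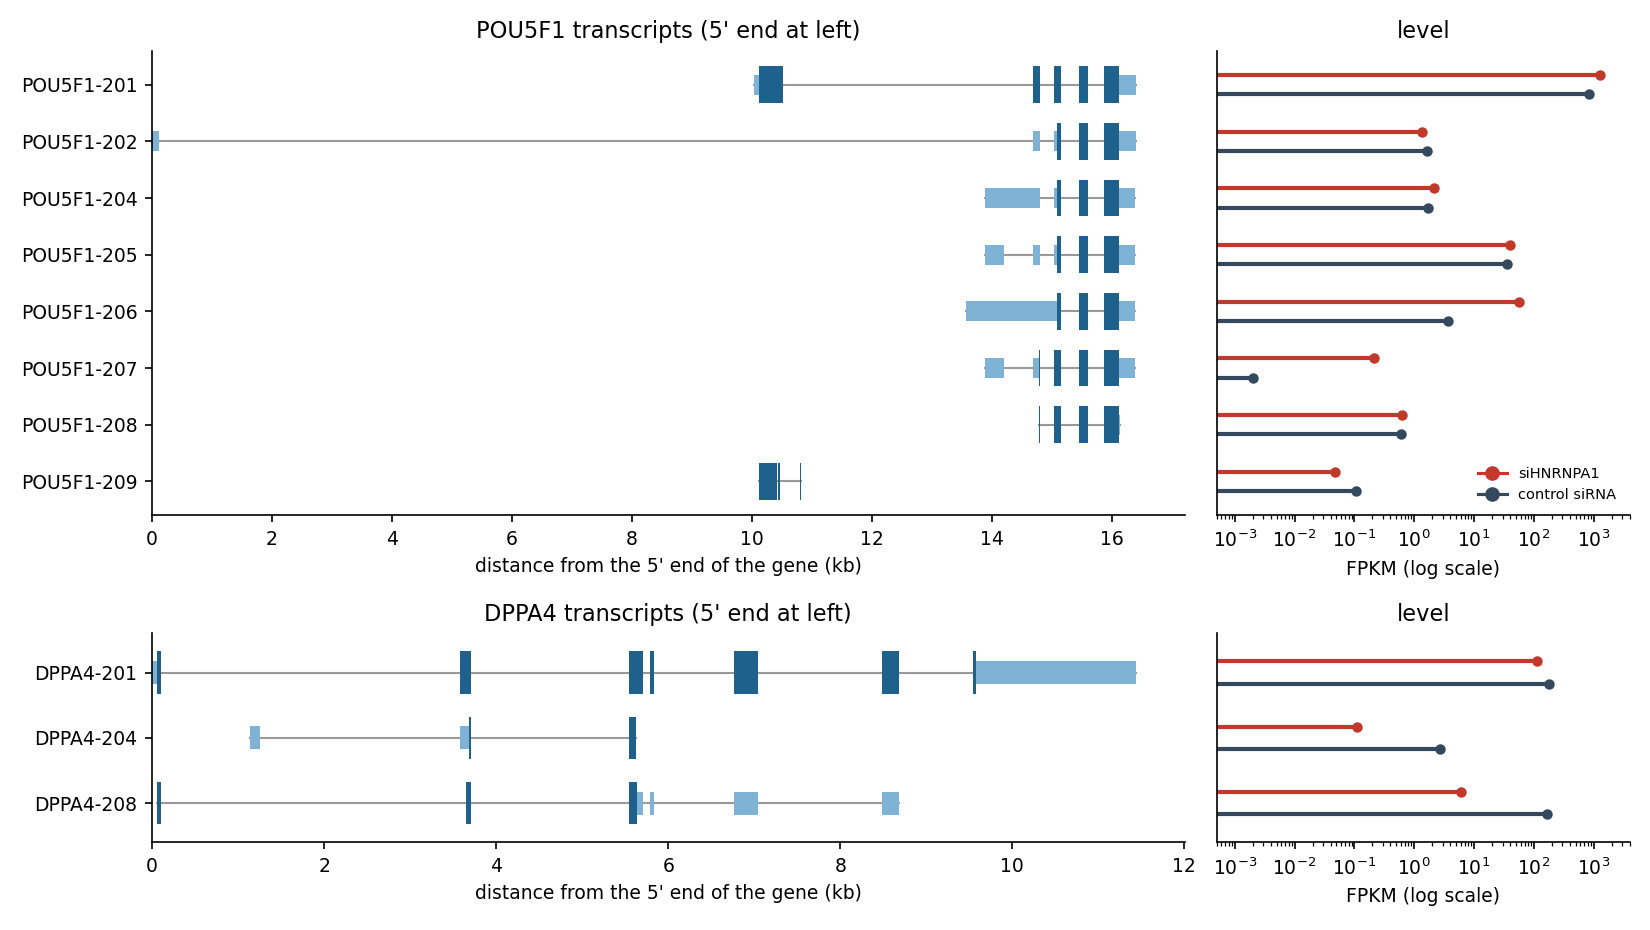
Left, exons of each listed POU5F1 and DPPA4 transcript by distance in kb from the 5′ end of the gene, with coding parts in dark blue and noncoding parts in light blue. Right, FPKM of the same transcript on a log axis in the siHNRNPA1 library (red, above) and the control library (dark, below), where POU5F1-206 is at 56.4 and 3.67 FPKM and DPPA4-208 at 6.02 and 164 FPKM.

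DPPA2 and DPPA4 are neighbouring genes whose SAP-domain proteins pair with each other and keep developmental promoters in a poised chromatin state. Both were at least 2-fold lower in the siHNRNPA1 library. DPPA2 (ENSG00000163530, chr3:109293788-109316517, minus strand) was the least abundant factor, with 3.56 FPKM with siHNRNPA1 (3.04 to 4.15) and 8.75 FPKM with control siRNA (7.89 to 9.68). Its log2 fold was -1.10, and -1.07 after the subtraction. It rests on 164 estimated counts with siHNRNPA1 and 375 with control siRNA, and was -0.68 at a pseudocount of 5 FPKM and -0.96 after median-ratio scaling. DPPA4 (ENSG00000121570, chr3:109326141-109337572, minus strand) had 119 FPKM with siHNRNPA1 (116 to 121) and 346 FPKM with control siRNA (341 to 351). Its log2 fold of -1.54 was the lowest of the 10 factors, and it stood at -1.12 after the subtraction. DPPA4 mRNA exceeded DPPA2 mRNA by 33.3 times in the siHNRNPA1 library (28.5 to 39.1). In the control library it did so by 39.5 times (35.7 to 43.9), and the intervals overlap. The DPPA4 total includes a transcript annotated as a target of nonsense-mediated decay, described below. Without that transcript DPPA4 had 113 FPKM with siHNRNPA1 and 182 FPKM with control siRNA. On those levels DPPA4 exceeded DPPA2 by more times in the siHNRNPA1 library than in the control library. Nothing is therefore read from the overlap.

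A large part of the DPPA4 difference lay in a transcript that does not encode the whole protein. DPPA4-208 is annotated as a target of nonsense-mediated decay, the pathway that removes mRNAs with an early stop codon, and has a coding frame of 68 codons against 304 in the full-length DPPA4-201. DPPA4-208 had 6.02 FPKM with siHNRNPA1 (5.13 to 7.02) and 164 FPKM with control siRNA (159 to 169), a log2 fold of -4.55. Full-length DPPA4-201 had 112 FPKM with siHNRNPA1 (110.3 to 115) and 179 FPKM with control siRNA (176 to 182), a log2 fold of -0.67, which is within 2-fold. The decay-type transcript thus made up 5.08% of the gene's FPKM with siHNRNPA1 and 47.4% in the control library, a difference of -42.3 percentage points. In estimated counts, which do not divide by length, its share was 1.504% with siHNRNPA1 (1.28% to 1.75%) and 20.6% with control siRNA (20.04% to 21.2%), a difference of -19.1 percentage points. Without it the gene had 113 FPKM with siHNRNPA1 and 182 FPKM with control siRNA, a log2 fold of -0.69. The lower call for DPPA4 therefore rests on this transcript.

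DPPA4-208 differs from DPPA4-201 inside the gene by the absence of the first 73 bases of exon 2 (chr3:109333921-109333993), and it also starts later and ends earlier. It has no exonic base that is not in another listed DPPA4 transcript, so reads over the junction of exon 1 with the shortened exon 2 are what can set it apart, and its level depends on how shared reads were divided. The stretch is shown from the GENCODE release 29 transcripts, with the 73 bases missing from DPPA4-208 in capitals.
DPPA4-201 exon 1 to exon 2: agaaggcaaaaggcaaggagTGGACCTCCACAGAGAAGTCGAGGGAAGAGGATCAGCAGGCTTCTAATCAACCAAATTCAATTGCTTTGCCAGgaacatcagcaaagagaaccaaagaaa
DPPA4-208 exon 1 to exon 2: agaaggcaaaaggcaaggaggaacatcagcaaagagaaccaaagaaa
The capitals hold neither TAGGG, the letters at the core of the classical hnRNP A1 binding motif, nor the shorter TAG. Their GC content is 47.9%. Only these 73 bases were searched here and the introns beside them were not, so nothing is read from the absence of the letters.

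Set against other genes, a shift of transcript shares was common in these libraries. Of 5715 genes with 2 or more listed transcripts and 5 FPKM or more in each library, 2318 (40.6%) had a transcript whose share differed by at least 20 percentage points. Of the 6 factors that could be compared DPPA4 was the only one, at 43.0 points for DPPA4-201, and in shares of estimated counts none reached 20. The 40.6% of all genes is for shares of FPKM, and no such figure is given for shares of estimated counts. The largest share difference was 6.35 points in ZFP42, 3.74 in POU5F1, 1.96 in SALL4, 1.10 in PRDM14 and 0.842 in NANOG. DPPA4 apart, the leading transcript of each of these genes was thus much the same fraction of the total in both libraries.

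**Figure D3:**
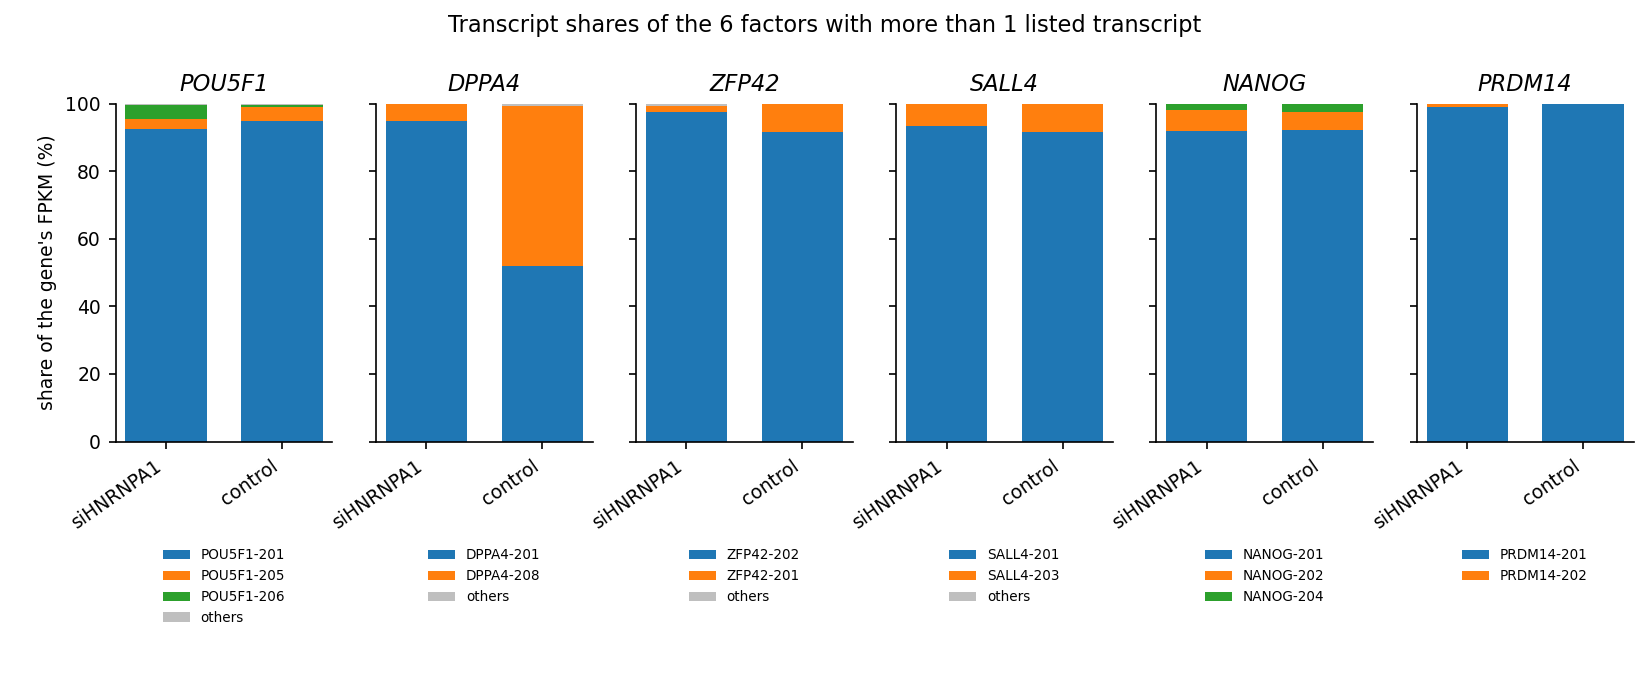
Share of each listed transcript in the FPKM of its gene, in percent, for the 6 factors with more than 1 listed transcript, with the siHNRNPA1 library left of the control library in each panel and transcripts under 1% in both libraries pooled as others. DPPA4-208 takes 5.08% with siHNRNPA1 and 47.4% with control siRNA, while the leading transcripts of the other genes stay above 90% in both.

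PRDM14 was the factor with the highest fold. It is a PR-domain zinc-finger protein that in human embryonic stem cells binds the POU5F1 enhancer and represses genes of differentiation. PRDM14 (ENSG00000147596, chr8:70051651-70071693, minus strand) had 46.5 FPKM with siHNRNPA1 (45.0 to 48.1) and 14.3 FPKM with control siRNA (13.4 to 15.1), on 3591 estimated counts with siHNRNPA1 and 1037 with control siRNA. This is 3.26 times the level with control siRNA. The log2 fold was 1.64, above that of 97.1% of the genes kept. It stood at 1.25 after the subtraction and between 1.25 and 1.79 over all other settings tried. The 8-exon transcript PRDM14-201 made up 98.9% of it with siHNRNPA1 and 100% with control siRNA. PRDM14 mRNA was 2.58 times as abundant as NANOG mRNA with siHNRNPA1 and 0.630 times with control siRNA. After the subtraction the folds of PRDM14 (1.25) and NANOG (0.81) lay much closer together than as deposited (1.64 and -0.31), so most of the difference in this ratio is not seen on that scale.

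SALL4 and ZFP42 are zinc-finger factors of the same circuit, and both were within 2-fold. SALL4, a partner of OCT4 that brings the NuRD corepressor to DNA, lies at chr20:51782331-51802520 on the minus strand (ENSG00000101115). It had 22.8 FPKM with siHNRNPA1 (22.0 to 23.5) and 29.6 FPKM with control siRNA (28.8 to 30.5), a log2 fold of -0.37, and 0.11 after the subtraction.

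SALL4 mRNA is spliced into a long A form of 1053 codons (SALL4-201) and a short B form of 616 codons (SALL4-203) that lacks 1311 bases of exon 2 (chr20:51790022-51791332), which code for part of the zinc fingers. The A form had 21.3 FPKM with siHNRNPA1 and 27.1 FPKM with control siRNA. The B form had 1.49 FPKM with siHNRNPA1 (1.204 to 1.82) and 2.52 FPKM with control siRNA (2.13 to 2.95). Its share of the gene's FPKM was 6.54% with siHNRNPA1 and 8.50% with control siRNA, and its share of counts was 2.51% (2.03% to 3.06%) in the siHNRNPA1 library and 3.32% (2.82% to 3.89%) in the control library, intervals that overlap. The A form thus led in both libraries. The B form has no exonic base outside the other listed SALL4 transcripts, so its level and share depend on how shared reads were divided. The divergence of the 2 forms is shown from the same transcripts, with the capitals marking what follows the end of exon 2 of the B form.
SALL4-201 within exon 2: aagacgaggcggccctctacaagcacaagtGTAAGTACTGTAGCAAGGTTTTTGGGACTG
SALL4-203 exon 2 to exon 3: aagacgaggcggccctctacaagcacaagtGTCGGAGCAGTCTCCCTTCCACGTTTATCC
The first 2 capitals, GT, are the same in both forms, and the letters differ after them. The A form reads on through exon 2 at this point.

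ZFP42, also called REX1, is a much used marker of undifferentiated cells. It lies at chr4:187995771-188005050 on the plus strand (ENSG00000179059) and had 61.5 FPKM with siHNRNPA1 (59.8 to 63.2) and 55.7 FPKM with control siRNA (54.0 to 57.3). Its log2 fold was 0.14 in FPKM, -0.01 in TPM and 0.72 after the subtraction, within 2-fold on each scale. All 3 listed transcripts have a coding frame of 310 codons, so the differences between them are taken to lie in noncoding parts. ZFP42-202 had 59.99 FPKM with siHNRNPA1 and 51.0 FPKM with control siRNA. It has no exonic base outside the other listed ZFP42 transcripts, so its level depends on how shared reads were divided. ZFP42-201, which carries an extra exon of 166 bases (chr4:187999108-187999273), had 1.12 FPKM with siHNRNPA1 (0.908 to 1.36) and 4.55 FPKM with control siRNA (4.10 to 5.03), a log2 fold of -1.39. Its share was 1.82% with siHNRNPA1 and 8.17% with control siRNA. The entry into that exon is shown because it separates the transcripts, with the next exon in capitals.
ZFP42-202 exon 1 to exon 2: ttcgcggtaacagggACAAATGTACTGAGG
ZFP42-201 exon 1 to exon 2: ttcgcggtaacagggGTTGGAGTGCAATGG

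UTF1 and FOXD3 were also within 2-fold, and both have GC-rich transcripts. UTF1, a chromatin-bound protein of undifferentiated cells, lies at chr10:133230274-133231558 on the plus strand (ENSG00000171794). It had 33.5 FPKM with siHNRNPA1 (31.7 to 35.4) and 25.1 FPKM with control siRNA (23.5 to 26.8), a log2 fold of 0.40. At 76.8% its leading transcript had the highest GC content of all genes kept, so its 100 nearest genes were all less GC-rich. They had a median fold of 1.10, and UTF1 stood at -0.70 after the subtraction. FOXD3, a forkhead factor needed for pluripotent cells in the mouse embryo and later used in neural crest, lies at chr1:63323041-63325126 on the plus strand (ENSG00000187140). This gene of 1 exon had 16.9 FPKM with siHNRNPA1 (16.0 to 17.9) and 12.0 FPKM with control siRNA (11.2 to 12.9). Its log2 fold was 0.46, and -0.29 after the subtraction. The antisense gene FOXD3-AS1 overlaps its exon on the opposite strand, and strand use in counting is not given in the sources used here, so reads of the pair cannot be told apart.

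**Figure D4:**
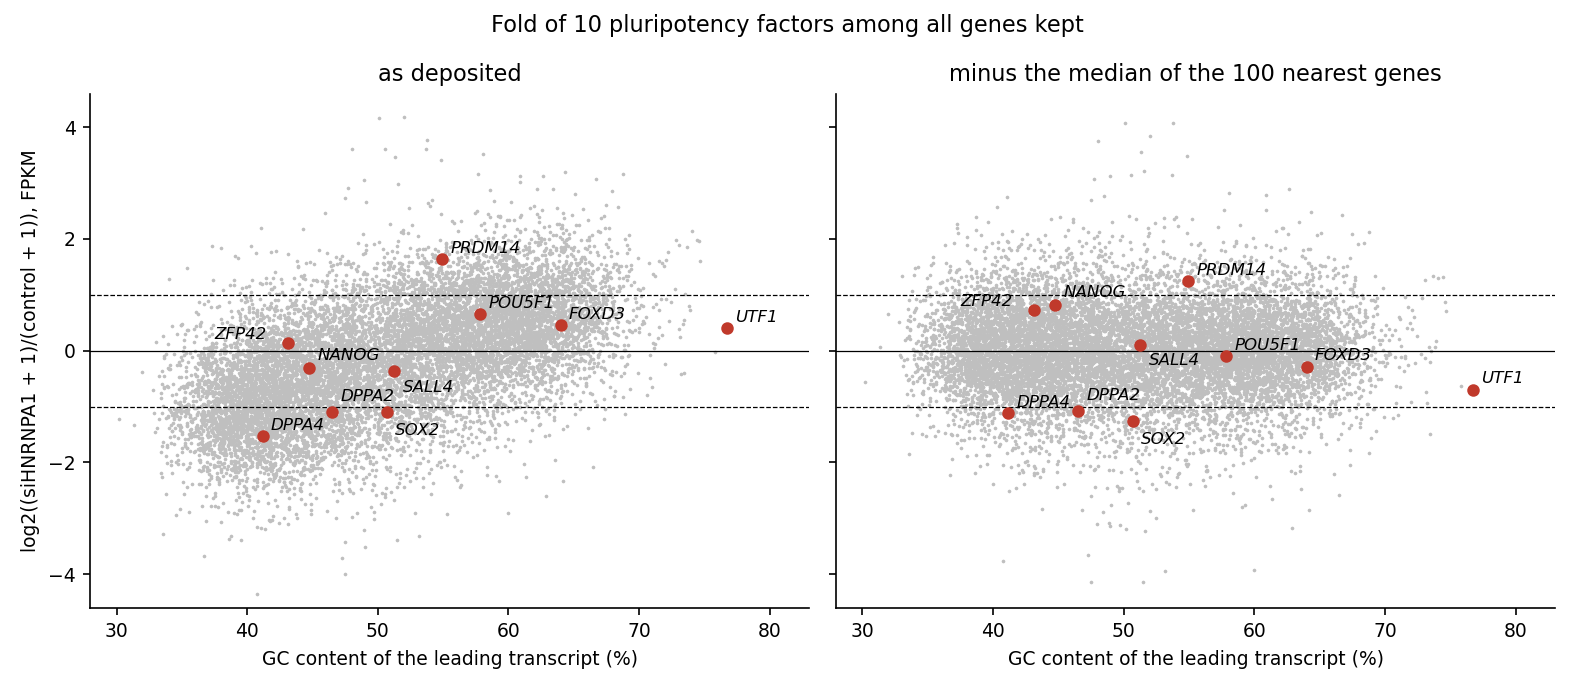
Log2 fold of each gene kept (grey points) and of the 10 factors (red) by GC content of the leading transcript in percent, as deposited (left) and with the median of the 100 nearest genes taken off (right), with dashed lines at 2-fold. PRDM14 lies above and SOX2, DPPA2 and DPPA4 below the lines in both panels, while NANOG moves from -0.31 to 0.81 and UTF1 from 0.40 to -0.70.

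In the siHNRNPA1 library the factors ran, by FPKM, from POU5F1 through DPPA4, ZFP42, SOX2, PRDM14, UTF1, SALL4, NANOG and FOXD3 to DPPA2. The intervals of ZFP42 and SOX2 overlapped there, as did those of NANOG and FOXD3. In the control library the order was POU5F1, DPPA4, SOX2, ZFP42, SALL4, UTF1, NANOG, PRDM14, FOXD3 and DPPA2, with no overlap between neighbours. The first 2 places and the last were the same in both libraries.

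Close copies limit how firmly reads can be assigned. NANOGP8, a retrocopy of NANOG, was listed at 15.7 FPKM with siHNRNPA1 and 18.3 FPKM with control siRNA, on 479 estimated counts with siHNRNPA1 and 520 with control siRNA. That is close to the level of NANOG itself in FPKM, which divides by length, with 918 bases in NANOGP8 and 5183 in NANOG for the leading transcript. NANOG rests on more estimated counts, 2904 with siHNRNPA1 and 3413 with control siRNA. The division of reads between them is uncertain. POU5F1B, a copy of POU5F1, had 1.45 FPKM with siHNRNPA1 and 0.780 FPKM with control siRNA, small beside POU5F1. POU5F1 also shares exonic bases with TCF19 on the opposite strand, and there too reads of the pair cannot be told apart.

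Among the leading transcripts, TAGGG occurs 5 times in SALL4 and 1 time each in POU5F1, NANOG, DPPA4 and FOXD3, and is not found in the leading transcripts of the other 5 factors. Over all genes kept, 63.0% of leading transcripts hold it. Of the 4 factors past 2-fold, PRDM14, SOX2 and DPPA2 are without it and DPPA4 has it. A match of letters is a description and no binding site.

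Promoter sequences of the factors were searched for the letters that OCT4 and SOX2 are known to bind. RefSeq promoter sequences (GRCh38.p14, 250 bases before to 50 bases after the start) were at hand for 7 of the factors, and the 250 bases before the start were searched. Those of POU5F1, PRDM14 and SALL4 were not used here. The octamer core ATGCAAA reads TTTGCAT on the other strand and was searched on both. It was found in 1384 of 35116 promoters (3.94%), NANOG and SOX2 among them. The SOX core ACAATG, also searched on both strands, was in 3261 promoters (9.29%), and of the factors in NANOG. Both motifs at most 3 bases apart, in the order of the composite site and without overlap, were in 3 promoters (0.00854%), NANOG included. The 150 bases that hold them are shown, with the motifs in capitals and the strand of the gene read 5′ to 3′.
NANOG promoter, chr12:7789252-7789401, plus strand: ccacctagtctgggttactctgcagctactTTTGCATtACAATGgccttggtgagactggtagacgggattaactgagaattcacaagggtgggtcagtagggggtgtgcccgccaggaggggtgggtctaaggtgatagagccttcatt
SOX2 promoter, chr3:181711775-181711924, plus strand: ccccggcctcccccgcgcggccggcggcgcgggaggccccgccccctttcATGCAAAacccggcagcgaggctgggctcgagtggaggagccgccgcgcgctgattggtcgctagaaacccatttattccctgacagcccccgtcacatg
NANOG, with both motifs side by side, had a log2 fold of -0.31, and 0.81 after the subtraction. SOX2, with the octamer core alone, had one of -1.10, and -1.26 after the subtraction. OCT4 mRNA was within 2-fold and SOX2 mRNA lower in the same library. A link between these motifs and the folds was not tested.

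The genes of the wider circuit lay on both sides of 0. Of 32 listed partners of the core factors 23 passed the expression minimum, with 3 at least 2-fold higher, 7 lower and a median log2 fold of -0.36, or 1 and 6 with a median of -0.29 after the subtraction. These and the list counts below stand beside 12.4% higher and 21.9% lower among all genes as deposited, and 8.06% and 8.41% after the subtraction, and with so few genes per list nothing is read from them about a list. ZNF143, a zinc-finger activator, had 5.40 FPKM with siHNRNPA1 and 22.0 FPKM with control siRNA (-1.85). RIF1 (-1.43) was lower, and ZSCAN10, a partner of OCT4 and SOX2 known from mouse cells, was higher at 201 FPKM with siHNRNPA1 and 72.0 FPKM with control siRNA (1.47). After the subtraction ZNF143 (-1.57) was still past 2-fold and RIF1 (-0.01) and ZSCAN10 (0.73) were not. Of the 32 listed partners only KLF17, a factor of the naive state, was listed at 0 in both libraries, so nothing is read from it about that state.

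Of 20 known target genes of OCT4, SOX2 and NANOG 19 were measured, with 5 at least 2-fold higher (12.4% of all genes), 4 lower (21.9% of all genes) and a median of 0.08. After the subtraction they were 3 (8.06% of all genes) and 1 (8.41%), with a median of 0.22. LEFTY1, a secreted inhibitor of NODAL, had 48.4 FPKM with siHNRNPA1 and 5.69 FPKM with control siRNA (2.88). LEFTY2 had 17.5 FPKM with siHNRNPA1 and 4.40 FPKM with control siRNA (1.78), and the secretoglobin SCGB3A2 had 72.7 FPKM with siHNRNPA1 and 22.2 FPKM with control siRNA (1.67). LIN28B, the let-7 regulator, had 5.97 FPKM with siHNRNPA1 and 20.6 FPKM with control siRNA (-1.63), but was within 2-fold after the subtraction (-0.37), as was SCGB3A2 (0.99). In counts scaled by their library total LIN28B stood at -2.74 and SCGB3A2 at 1.68. Both LEFTY genes remained past 2-fold after the subtraction, at 2.20 for LEFTY1 and 1.34 for LEFTY2. Each overlaps another annotated gene on its own strand, and for LEFTY1 that gene is in the table too, so its reads are assigned with less certainty.

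Corepressors of SALL4 and cofactors of PRDM14 were examined as the machinery through which these factors act. Of the 11 NuRD subunits 1 was at least 2-fold higher and 2 were lower, against the same 12.4% and 21.9% of all genes, with a median of -0.22, or 1 and 1 with a median of -0.10 after the subtraction. MBD3 had 124 FPKM with siHNRNPA1 and 27.7 FPKM with control siRNA (2.13), and overlaps another listed gene on the same strand. HDAC2, the deacetylase, had 18.9 FPKM with siHNRNPA1 and 82.9 FPKM with control siRNA (-2.08). GATAD2B stood at -1.20 and RBBP4 at -0.80. After the subtraction MBD3 (1.36) and HDAC2 (-1.51) were still past 2-fold, GATAD2B (-0.44) was within it and RBBP4 (0.55) had turned its sign. In counts scaled by their library total HDAC2 stood at -0.92, within 2-fold, and MBD3 at 2.21. Of 5 PRDM14 cofactors and polycomb genes 4 were measured, with none higher and 2 lower at a median of -0.59, or 1 and 1 with a median of 0.09 after the subtraction. SUZ12 (-1.62) and CBFA2T2 (-1.33) were the lower ones, and EED (0.67) and EZH2 (0.15) were within 2-fold. After the subtraction SUZ12 stood at -0.53, CBFA2T2 at -1.08 and EZH2 at 1.23. In counts scaled by their library total CBFA2T2 stood at -0.68, within 2-fold, and SUZ12 at -1.79.

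**Figure D5:**
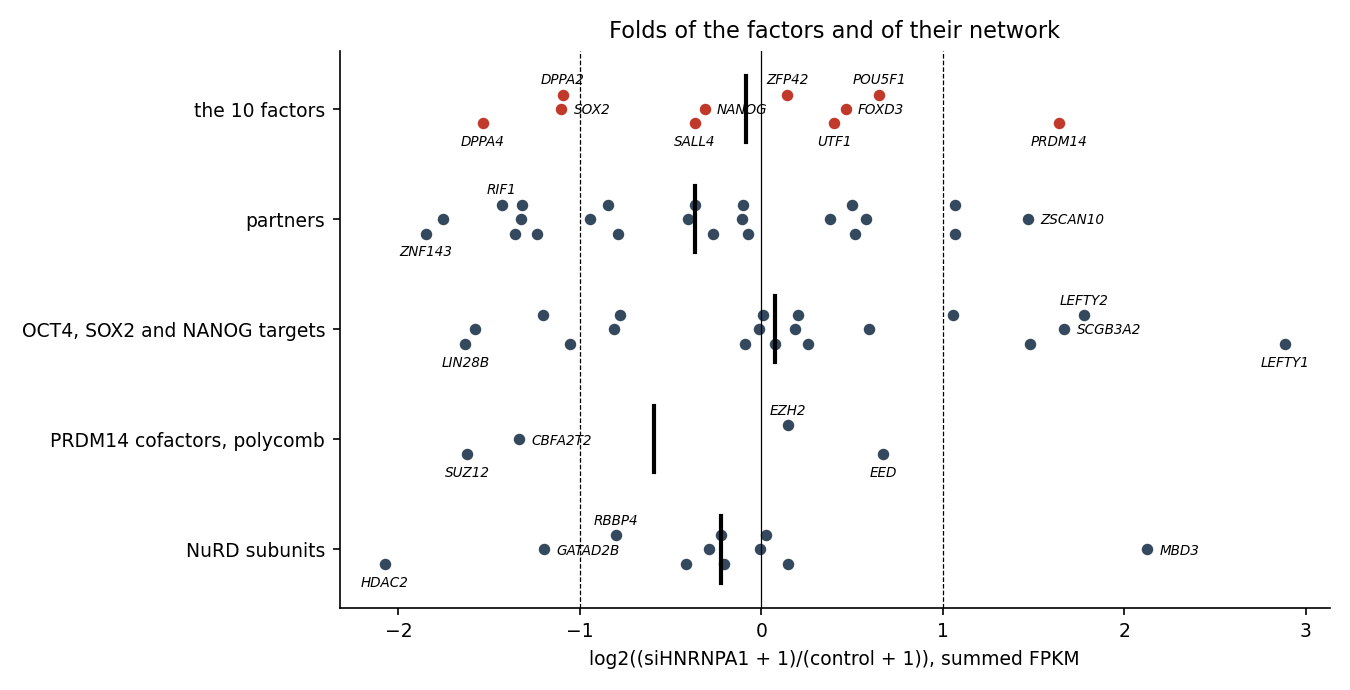
Log2 fold of summed FPKM for the 10 factors (red) and for the measured genes of 4 related lists (dark), 1 point per gene, with a bar at each median and dashed lines at 2-fold. The medians are -0.09 for the factors, -0.36 for partners, 0.08 for OCT4, SOX2 and NANOG targets, -0.59 for PRDM14 cofactors and polycomb genes and -0.22 for NuRD subunits, and each list spans both sides of 0.

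The labelled cell type was set against its markers. All 9 markers of undifferentiated cells were measured, with a summed level of 1177 FPKM with siHNRNPA1 and 1469 FPKM with control siRNA. PODXL (-1.61) and CDH1 (-1.50) were lower, GDF3 (1.48) was higher, and TERF1 stood at -0.78. After the subtraction PODXL (-1.42) and GDF3 (1.27) were still past 2-fold, while CDH1 (-0.84) and TERF1 (-0.05) were within it. Neural ectoderm genes summed to 1.90 FPKM with siHNRNPA1 and 2.11 FPKM with control siRNA, with NEUROG2 listed at 0 in both. Of these 6 genes 1 passed the expression minimum, and it made most of the sum in both libraries. Mesoderm genes summed to 2.92 FPKM with siHNRNPA1 and 3.58 FPKM with control siRNA over the 5 of 6 in the table. Here too 1 gene passed the expression minimum and made most of the sum in both libraries. Endoderm genes summed to 2.27 FPKM with siHNRNPA1 and 0.694 FPKM with control siRNA, with GATA6 and SOX17 listed at 0 in both. Of that sum FOXA2, named after its values were seen, made 1.52 FPKM with siHNRNPA1 and was listed at 0 in the control library. Trophoblast genes summed to 0.835 FPKM with siHNRNPA1 and 0.525 FPKM with control siRNA, with TFAP2A listed at 0 in both. The fibroblast list summed to 215 FPKM with siHNRNPA1 and 260.3 FPKM with control siRNA, of which THY1, also carried by human embryonic stem cells, made 181 FPKM with siHNRNPA1 and 233 FPKM with control siRNA, while COL3A1, DCN and LUM were listed at 0 in both. COL1A1 had 25.0 FPKM with siHNRNPA1 and 14.5 FPKM with control siRNA (0.75), and COL1A2 had 8.38 FPKM with siHNRNPA1 and 13.3 FPKM with control siRNA (-0.61). The part of these other cell types in the differences of the factors was not tested.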

How the data were processed

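RNA-seq of 2 H9 libraries, 1 treated with siRNA against HNRNPA1 and 1 with control siRNA, was analysed from the deposited transcript table. Per the file headers it holds for each library per transcript an estimated count, a TPM and an FPKM. The deposited estimated counts are whole numbers, treated as estimates because transcripts of 1 gene that overlap all have counts. The TPM values were deposited by the authors scaled to the same sum per library, and the FPKM values deposited by the authors are corrected for length and depth. The submitters' processing notes name GRCm38 and mm10, which are mouse builds, while the identifiers are human. Of the transcripts 95033 are in GENCODE release 29 (GRCh38), and 93426 have the same position there, all 26 of the factors among them. Which aligner, quantifier and annotation release were used is not given in the sources used here. There are 6 per-sample columns in the table that match neither library, and these were not used.

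FPKM and counts were summed per gene. Folds used a pseudocount of 1 FPKM, which understates folds of weakly expressed genes, and genes with a mean of at least 1 FPKM were kept. Shares of transcripts were compared from 5 FPKM in both libraries, and 20 percentage points were counted. Type, exons, coding frames, GC content and TAGGG matches came from GENCODE release 29, for the transcript with the highest mean FPKM of each gene. GC content and length were found for 11916 of 11921 genes kept. Intervals were Poisson (levels) and Clopper-Pearson (shares and ratios), both exact at 95%, and take each estimated count as 1 read. The fold and share computations were tested on simulated data. Python 3.11.15, pandas 2.3.3, numpy 2.4.6, scipy 1.17.1 and matplotlib 3.10.9 were used.

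All 10 factors were named, with transcripts of at least 1 FPKM or 10% of their gene in either library, HNRNPA1, close copies, and the 4 measured genes with the largest absolute fold of each related list. Some items that this rule takes are not reported here. Members and lists were chosen with earlier results of these data known. Other settings were pseudocounts of 0.1 and 5, TPM with and without mitochondrial genes, median-ratio scaling, counts scaled by their library total, protein-coding transcripts alone, other expression minimums and subtraction of the 100 nearest genes.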

Additional observations from a re-analysis of the deposited data

How the results depend on the processing

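PRDM14 was at least 2-fold higher under each setting run. Of the 3 lower factors, 1 was left after median-ratio scaling, where SOX2 and DPPA2 came within 2-fold. DPPA2 was also lost at a pseudocount of 5 FPKM, and DPPA4 was lost in counts scaled by their library total (-0.96) and with protein-coding transcripts alone (-0.69). ZFP42 was below 0 in both TPM settings, and subtraction of the nearest genes turned the sign of 5 factors within 2-fold. Factors with a transcript share difference of at least 20 percentage points numbered 1 by FPKM and TPM, 0 by estimated counts and 0 with protein-coding transcripts alone. The 40.6% of all genes past this threshold is for shares of FPKM. No such figure is given for the other measures, so nothing is read from their counts. Over all genes a pseudocount of 5 FPKM gave 841 higher and 947 lower, and subtraction of the nearest genes 961 higher and 1002 lower, against 1480 and 2609 as reported. Beyond the construction of each setting, the cause was not tested. Under other settings 124 values of single genes and transcripts were compared with the reported value. Of these, 72 differed from it by no more than the counting error and 52 by more. No paired analysis was possible because each condition has 1 library. Depth limits DPPA2 most, with 164 counts under siHNRNPA1 and 375 under control siRNA.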
